A study of Rattus norvegicus with 24 samples.

Results

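Fkbp5, Klf9, Errfi1, Zbtb16, Tsc22d3, Sgk1 and Mt1 are 7 genes known to be induced by glucocorticoids, and their messenger RNA was followed in cells of the neonatal rat testis. They were taken by symbol from a table of 21425 genes, in which all 7 have a row. The libraries come from wild-type Sprague Dawley rats of postnatal day 5, from an unsorted mixture of testis cells. For culture these cells were embedded in Matrigel, an extracellular matrix gel, and fed serum-free medium that was partly renewed each day. The baseline experiment used 1 litter and has 4 groups of 3 technical replicates: the fresh isolate, and culture days 3, 5 and 7. In the induction experiment, cultures of 3 litters were sampled on day 10 before hormone, called 0 h, and then 2, 12 and 48 h after luteinising hormone (LH, 50 mIU/mL) and follicle-stimulating hormone (FSH, 20 mIU/mL) had been added in fresh medium. Each of these 12 libraries pools replicate cultures of 1 litter at 1 time. Cultures sampled at 6 h were not analysed here.

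Glucocorticoids are adrenal steroids that enter the cell and bind the glucocorticoid receptor, encoded by Nr3c1. The receptor is held ready by heat shock protein chaperones, moves to the nucleus once it has bound hormone, and switches on genes by binding response elements in DNA. Cells also set their own exposure: the enzyme encoded by Hsd11b1 regenerates active hormone and the one encoded by Hsd11b2 inactivates it, and in the testis Leydig cells are a known site of this conversion. All 7 genes also answer to other signals. Whether the culture medium held a glucocorticoid is not given in the sources used here, and no steroid was measured in these data.

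Read totals per library were 17259939 to 30400440 in the baseline experiment and 15793940 to 28298743 in the induction experiment. A level is given in CPM, in which every library is brought to one total; it is not divided by transcript length, so levels are compared between libraries and not between genes. At these depths 3 reads correspond to 0.0987 to 0.19 CPM. Fold changes are differences of log2(CPM + 1) from limma with their standard error (SE), and p-values are limma's, adjusted by the Benjamini-Hochberg method over all genes tested. A gene is said to have risen or fallen at an adjusted p under 0.05. The baseline p-values measure only the spread between technical replicates of 1 litter. The labelled tissue carried its markers: summed levels in the fresh isolate were 2861 to 2944 CPM for Sertoli cells, 509 to 524 CPM for Leydig cells and 1604 to 1785 CPM for peritubular myoid cells. At day 3, 7 of 10 Sertoli markers tested rose and 1 fell, 8 of 9 myoid markers rose and 0 fell, and 2 of 8 Leydig markers rose and 4 fell; their part in the results below was not tested. Because these are bulk samples, fewer cells of a type and less RNA per cell cannot be told apart.

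Between the fresh isolate and culture, 6 of the 7 genes fell and Tsc22d3 did not pass the test. The same 6 fell at day 3, day 5 and day 7, and in each of them every cultured library lay below every fresh library. Of all 13055 genes tested, 55.9% changed at day 3, 59.9% at day 5 and 60% at day 7, and 26.8%, 30.3% and 31.4% fell. The groups did not overlap at those days for 67.2%, 65.3% and 71.4% of all genes. The median log2 fold change of the 7 genes was -1.71 at day 3, -1.66 at day 5 and -1.61 at day 7, and over all genes tested it was 0.02, -0.03 and -0.05. The summed level of the 7 genes was 731 to 735 CPM in the fresh isolate and 240.0 to 320.2 CPM in the 9 cultured libraries. The 3 comparisons share the fresh libraries.

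**Figure D1:**
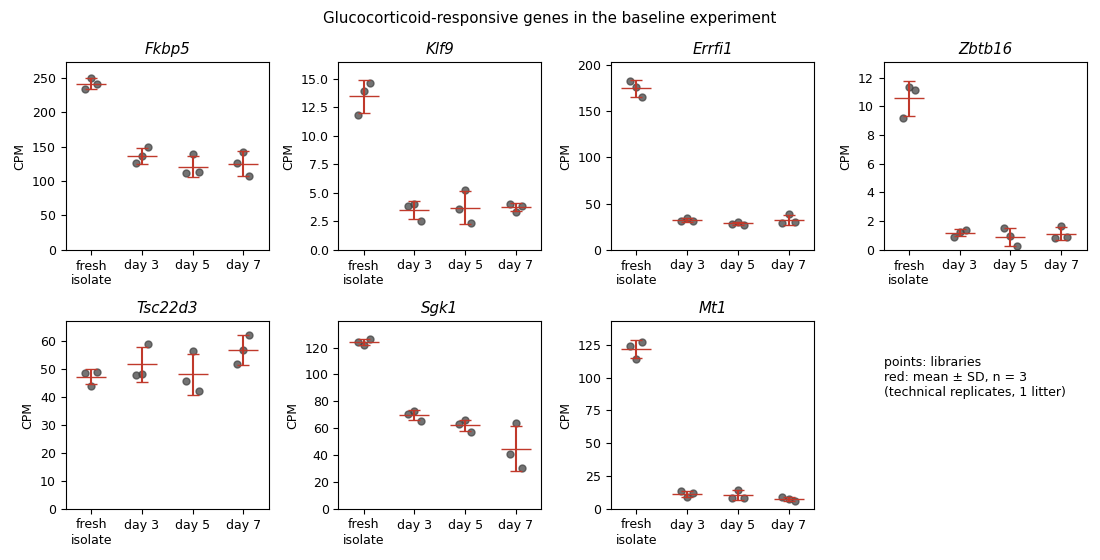
CPM of each gene (vertical axis, from 0) in the 12 baseline libraries by group (horizontal axis); points are libraries and red marks are mean ± SD of 3 technical replicates. In 6 panels every cultured library lies below the 3 fresh libraries. The Tsc22d3 points of day 3 and day 5 overlap the range of the fresh isolate, with some outside it.

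Fkbp5 and Tsc22d3 are both products of receptor activity that act back on signalling; the first fell in culture and the second did not pass the test. Fkbp5 encodes a co-chaperone that lowers the receptor's affinity for hormone, and it stood at 233, 249.7 and 241 CPM in the fresh isolate. Its levels were 125, 136 and 149 CPM at day 3, 111, 139 and 113 CPM at day 5, and 125, 143 and 107 CPM at day 7. The lowest fresh library therefore exceeded the highest cultured one, and the cultured days overlapped each other. The fall of Fkbp5 was -0.82 ± 0.12 (log2, SE; adjusted p = 5.68e-05) at day 3, -0.998 ± 0.118 (9.05e-06) at day 5 and -0.95 ± 0.12 (1.26e-05) at day 7. Tsc22d3 encodes the glucocorticoid-induced leucine zipper, an inhibitor of inflammatory transcription factors, and it stood at 48.6, 44.0 and 48.9 CPM in the fresh isolate. It measured 47.6, 48.3 and 58.7 CPM at day 3, 45.7, 56.2 and 42.0 CPM at day 5, and 51.6, 56.6 and 62.1 CPM at day 7. The first pair of culture days overlapped the fresh isolate, and day 7 lay above it in every library. The log2 difference of Tsc22d3 from the fresh isolate was 0.12 (95% interval -0.15 to 0.39; adjusted p = 0.435) at day 3 and 0.02 (-0.26 to 0.29; 0.925) at day 5. At day 7 it was 0.26 (-0.01 to 0.53, limma adjusted p = 0.092). That difference passed the threshold in the edgeR quasi-likelihood test on the whole reads (adjusted p = 0.0464) and in DESeq2 (0.0439). It also passed in limma with TMM scaling (adjusted p = 0.0477) and in limma on those 2 groups alone (0.0337). It did not pass in limma with the replicate number as a block (0.11) or without the filter (0.104). Nor did it pass with any 1 library left out (0.0571 to 0.268).

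The transcription factors Klf9 and Zbtb16 fell to low levels. Klf9 encodes a Krüppel-like zinc finger protein and stood at 11.8, 13.9 and 14.6 CPM in the fresh isolate. Klf9 measured 3.81, 3.98 and 2.54 CPM at day 3, 3.53, 5.20 and 2.33 CPM at day 5, and 4.02, 3.34 and 3.86 CPM at day 7. No cultured library reached the fresh range, and the cultured days overlapped. The changes of Klf9 were -1.71 ± 0.22 (adjusted p = 2e-05) at day 3, -1.66 ± 0.22 (2.3e-05) at day 5 and -1.61 ± 0.22 (2.87e-05) at day 7. Zbtb16 encodes the zinc finger repressor PLZF, which also marks undifferentiated spermatogonia, so its reads in testis may come from germ cells as well as from somatic cells. Zbtb16 stood at 9.17, 11.3 and 11.2 CPM in the fresh isolate, on 209 to 339 reads. It measured 0.906, 1.25 and 1.37 CPM at day 3, 1.51, 0.928 and 0.265 CPM at day 5, and 0.803, 1.65 and 0.913 CPM at day 7. The cultured values rest on 5 to 38 reads per library, and the cultured days overlapped each other. The log2 change of Zbtb16 was -2.41 ± 0.24 (adjusted p = 2.3e-06) at day 3, -2.65 ± 0.24 (8.39e-07) at day 5 and -2.46 ± 0.24 (1.48e-06) at day 7. Of 16 germ cell markers tested, 14 fell at day 3 and 15 at day 5 and at day 7, and none rose. Their summed level went from 658 to 709.5 CPM in the fresh isolate to 116 to 160 CPM at day 3. Ddx4, which encodes a germ cell RNA helicase, fell from 38.9 to 2.72 CPM at day 3 (-3.55 ± 0.31, adjusted p = 6.99e-07). The part of the germ cell markers in the fall of Zbtb16 was not tested.

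Errfi1 and Sgk1 act on signalling at the membrane. Errfi1 encodes a feedback inhibitor of the epidermal growth factor receptor, and it was 183, 176 and 165 CPM in the fresh isolate. It measured 31.1, 34.2 and 31.0 CPM at day 3, 28.2, 30.5 and 26.9 CPM at day 5, and 28.8, 39.0 and 29.8 CPM at day 7. The fresh and cultured levels of Errfi1 were far apart, with no cultured library near the fresh range. The changes were -2.41 ± 0.12 (adjusted p = 3.86e-09), -2.57 ± 0.12 (2.07e-09) and -2.40 ± 0.12 (3.29e-09) at days 3, 5 and 7. Sgk1 encodes a serum- and glucocorticoid-regulated kinase that acts on ion channels, and it was 124, 121.96 and 127 CPM in the fresh isolate. Sgk1 measured 70.6, 73.1 and 65.6 CPM at day 3, 63.1, 65.7 and 57.5 CPM at day 5, and 40.5, 63.6 and 30.3 CPM at day 7. Its spread was widest at day 7, where replicate 2 lay in the range of day 5. The changes of Sgk1 from the fresh isolate were -0.83 ± 0.19 (adjusted p = 0.00204) at day 3, -0.99 ± 0.19 (0.000477) at day 5 and -1.52 ± 0.19 (1.21e-05) at day 7.

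Mt1 had the largest fall of the 7 genes at every culture day on the log2(CPM + 1) scale, though by edgeR on the reads Zbtb16 fell as far at day 5 (-3.55 against -3.53). It encodes metallothionein 1, a small cysteine-rich protein that binds zinc and copper, and its transcription answers to metals through the factor MTF1 as well as to glucocorticoids. Mt1 was 124, 114 and 127 CPM in the fresh isolate. It measured 13.4, 8.73 and 12.1 CPM at day 3, 8.23, 14.6 and 8.36 CPM at day 5, and 9.01, 7.59 and 5.58 CPM at day 7. The fresh libraries exceeded every cultured library several times over. The changes of Mt1 were -3.33 ± 0.22 (adjusted p = 5.02e-08) at day 3, -3.47 ± 0.22 (3.05e-08) at day 5 and -3.89 ± 0.22 (9.8e-09) at day 7. The neighbouring metallothionein gene Mt2A fell in the same comparisons, from 78.3, 71.6 and 76.7 CPM in the fresh isolate to 5.66, 4.27 and 5.66 CPM at day 3 (-3.63 ± 0.16, adjusted p = 2.08e-09). A row for Mt1-ps3, which RefSeq lists as a pseudogene, had a mean of 20.1 CPM in the fresh isolate and 2.30 CPM at day 3. How reads that fit both Mt1 and such copies were counted is not given in the sources used here, so the level of Mt1 is uncertain to that extent.

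The promoters of Mt1 and Mt2A are shown because these genes moved together and because their known regulatory elements can be read in the sequence. Both are the 250 bases before the RefSeq start site on build GRCr8, on the minus strand, Mt1 at chr19:10832976-10833225 and Mt2A at chr19:10838709-10838958. Capitals mark the core of the metal response element, TGCACNC or TGCGCNC, on either strand.
Mt1: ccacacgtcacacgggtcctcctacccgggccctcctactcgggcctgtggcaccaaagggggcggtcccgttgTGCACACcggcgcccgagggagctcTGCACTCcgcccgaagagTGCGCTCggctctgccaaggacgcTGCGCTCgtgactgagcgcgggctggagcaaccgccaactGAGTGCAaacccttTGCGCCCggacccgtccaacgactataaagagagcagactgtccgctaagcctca
Mt2A: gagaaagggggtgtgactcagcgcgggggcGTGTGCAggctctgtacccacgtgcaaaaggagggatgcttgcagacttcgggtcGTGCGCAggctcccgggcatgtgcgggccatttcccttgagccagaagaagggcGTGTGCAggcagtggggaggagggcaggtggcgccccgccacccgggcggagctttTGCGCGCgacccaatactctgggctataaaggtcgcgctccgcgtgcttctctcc
The Mt1 promoter holds 6 of these cores, which begin at -176, -151, -133, -109, -69 and -55 from the start site, and the Mt2A promoter holds 4. Among 33469 RefSeq promoter windows of the same length, 20.6% hold at least 1 core and 1.17% hold 3 or more. The glucocorticoid response element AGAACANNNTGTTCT, searched on both strands, is in 0.012% of the windows, and its single arm AGAACA is in 17.5%. Neither is in the 10 windows of the 6 genes that had an entry, all but Zbtb16. A match or its absence here describes these letters in this window and says nothing of the receptor.

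The messenger RNA of the receptor was higher in culture, and receptor protein was not measured. Nr3c1 was 80.9, 83.1 and 80.2 CPM in the fresh isolate and 110.0, 114 and 99.6 CPM at day 3 (0.40 ± 0.10, adjusted p = 0.00369). It measured 133, 114 and 133 CPM at day 5 and 101.6, 121.4 and 119.5 CPM at day 7, all above the fresh isolate. Of 6 genes tested for receptors and hormone handling, 4 rose at each of the 3 days, none fell at day 3 and 1 fell at day 5 and at day 7. Hsd11b1, whose enzyme makes active hormone, rose from 1.68 to 5.90 CPM at day 3 (1.35 ± 0.27, adjusted p = 0.000716). Its libraries measured 4.35, 8.79 and 4.29 CPM at day 5 and 3.96, 3.95 and 2.64 CPM at day 7. Hsd11b2, whose enzyme removes active hormone, was 33.6 CPM in the fresh isolate. Hsd11b2 fell to 17.4 CPM at day 5 and 13.2 CPM at day 7 (-1.30 ± 0.14, adjusted p = 3.82e-06). Of 14 receptor chaperones and coregulators, 8, 7 and 7 fell and 1, 1 and 0 rose at days 3, 5 and 7. Of all 13055 genes tested, 55.9%, 59.9% and 60% changed at these days. By direction, 26.8%, 30.3% and 31.4% of all genes fell, and 3801, 3863 and 3725 genes rose. Hsp90ab1, a chaperone that holds the receptor, fell from 5645 to 2306 CPM at day 3 (-1.29 ± 0.10, adjusted p = 1.83e-07), and Fkbp4, a co-chaperone, changed by -0.83 ± 0.13 (8.93e-05).

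Other genes known as glucocorticoid targets went both ways in culture. Of 27 tested, 14 fell and 7 rose at day 3, 15 fell and 8 rose at day 5, and 14 fell and 9 rose at day 7. Of all 13055 genes, 26.8%, 30.3% and 31.4% fell at these days, and 3801, 3863 and 3725 genes rose. The medians of this list were -0.82, -0.86 and -0.52 on the log2 scale. Anxa1, which encodes the anti-inflammatory protein annexin A1, rose from 26.5 to 120.9 CPM at day 3 (2.15 ± 0.13, adjusted p = 2.45e-08). The transcription factor gene Klf15 rose from 4.03 to 10.4 CPM at day 3 (1.19 ± 0.16, adjusted p = 2.94e-05). Zfp36, whose product destabilises inflammatory messenger RNA, fell from 194 to 21.3 CPM at day 3 (-3.13 ± 0.11, adjusted p = 1.91e-10). Per1, a circadian clock gene, fell from 71.6 to 33.1 CPM at day 3 (-1.09 ± 0.15, adjusted p = 3.25e-05). Several of these genes also answer to cell stress and growth factor signals. Of 17 immediate early genes tested, 16 fell at day 3 and day 5 and 15 at day 7, and 0 rose. Summed, the immediate early genes were 12676 to 13211 CPM in the fresh isolate and 872 to 968 CPM at day 3. Their part in the falls of the 7 genes was not tested.

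Between day 3 and day 7 of culture none of the 7 genes passed the test by limma, while 3.79% of all genes did (3.72% with the replicate number as a block). At an unadjusted p under 0.05 there were 1936 such genes in all. The groups of Sgk1 did not overlap, a property of 20.5% of all genes, and its log2 change was -0.69 ± 0.19 (adjusted p = 0.0578). DESeq2 called Sgk1 (adjusted p = 0.048), as did limma with the replicate number as a block (0.0452), and edgeR did not (0.122), nor did limma on those 2 groups alone (0.167). The change rested on single day 7 libraries: it was -0.97 without replicate 2 (limma adjusted p = 0.00217) and -0.45 without replicate 3 (0.218). Mt1 changed by -0.56 ± 0.22 (adjusted p = 0.22). Of the handling genes, Hsd11b2 fell from 27.1 CPM at day 3 to 13.2 CPM at day 7 (-0.996 ± 0.141, limma adjusted p = 0.00276).

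**Figure D2:**
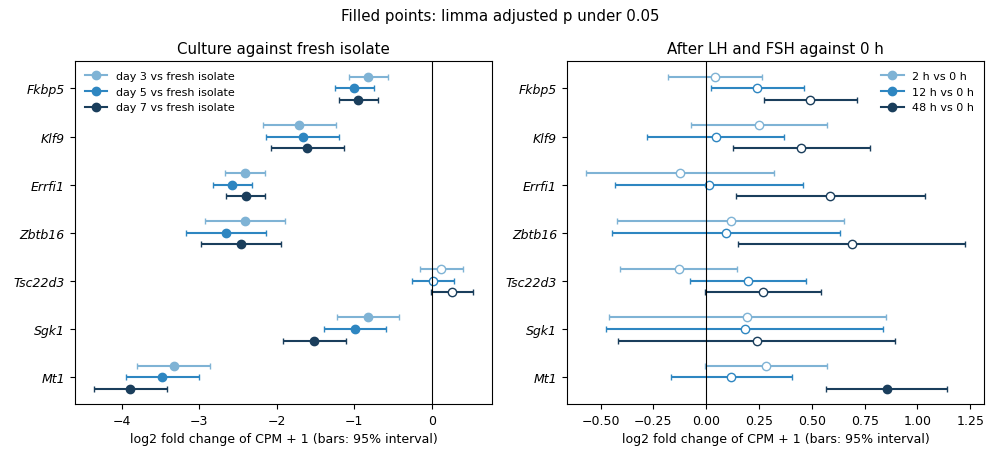
Log2 fold change of CPM + 1 (horizontal axis) with its 95% interval for each gene, on the left for culture against the fresh isolate and on the right for the times after LH and FSH against 0 h; filled points have a limma adjusted p under 0.05 and the horizontal scales differ. On the left 6 genes are filled at every day, and on the right the point of Mt1 at 48 h is the only filled one.

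After LH and FSH none of the 7 genes passed the test at 2 or 12 h, and at 48 h Mt1 rose. In the limma fit without the litter block, 0% of the 12450 genes tested passed at 2 h and at 12 h against 0 h. The count of 0 of 7 at these times thus stands beside 0 called genes in all. With the block none of the 7 passed at these times either, and the share of all genes with it is not given here. At an unadjusted p under 0.05, limma gave 1327 genes at 2 h and 311 at 12 h; edgeR called 6 and 0 and DESeq2 called 377 and 9. At 48 h limma called 0.394% of genes (43 rose, which is 0.345%, and 6 fell, which is 0.0482%), and with the litter as a block 4.35% (2.22% of all genes rose). No untreated cultures were analysed at 2, 12 or 48 h, so the effects of the hormones, of the medium change and of elapsed time cannot be told apart. The summed level of the 7 genes was 254 to 282 CPM at 0 h and 345 to 399 CPM at 48 h.

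**Figure D3:**
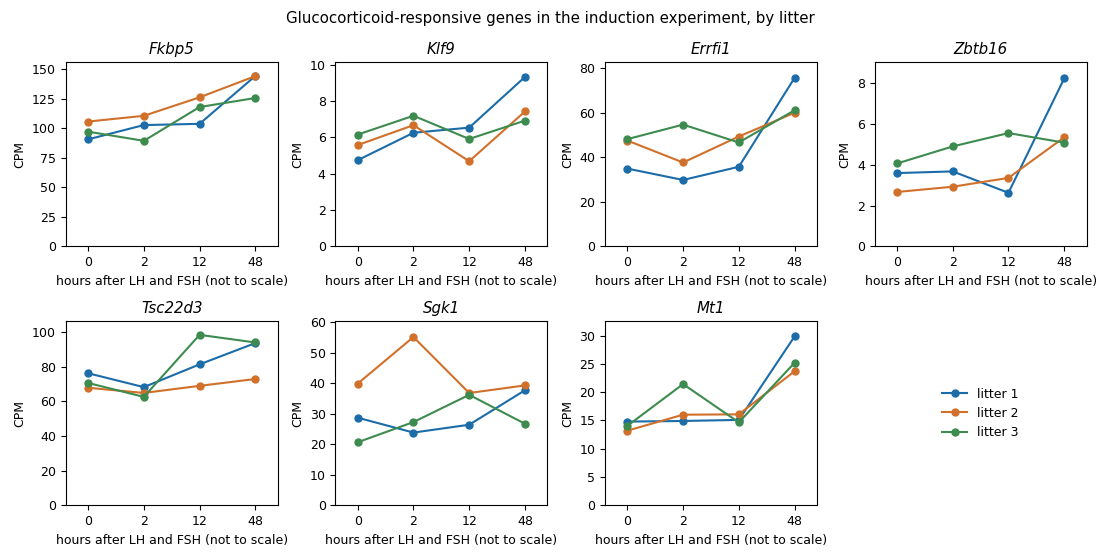
CPM of each gene (vertical axis, from 0) at 0, 2, 12 and 48 h after LH and FSH (horizontal axis, not to scale), with 1 line per litter and 1 library per point. In 6 of the 7 panels all 3 litters end higher at 48 h than at 0 h, and Sgk1 is the exception.

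Mt1 rose at 48 h. It stood at 14.8, 13.2 and 14.0 CPM in litters 1, 2 and 3 at 0 h, at 14.9, 16.0 and 21.4 CPM at 2 h, and at 15.1, 16.1 and 14.7 CPM at 12 h. At 48 h it was 29.9, 23.7 and 25.2 CPM, above every earlier library in all 3 litters. The mean went from 14.0 ± 0.80 to 26.3 ± 3.21 CPM (SD, n = 3 litters), a log2 change of 0.86 ± 0.13 (limma adjusted p = 0.0259, and 0.0066 with the litter as a block). The call was lost when any 1 of the 3 libraries at 0 h was left out (adjusted p = 0.0724 to 0.11) or the 48 h library of litter 1 (0.129), each time with a higher level at 48 h. Against 12 h the change of Mt1 was 0.74 ± 0.13 (adjusted p = 0.169), and with the litter as a block it passed (0.0336), as did 0.715% of all genes. Mt2A was 5.17, 3.54 and 4.77 CPM at 0 h and 13.6, 6.48 and 9.41 CPM at 48 h, higher in all 3 litters (0.94 ± 0.22, adjusted p = 0.106, and 0.0118 with the block). Of the 7 genes on the metal response list, none passed at 48 h without the block and Mt2A alone passed with it. The Mt1-ps3 row was at 0.230 CPM at 0 h and 0.320 CPM at 48 h.

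**Figure D4:**
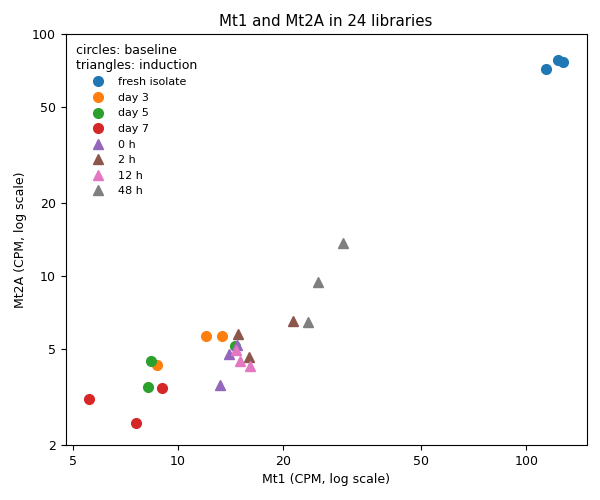
CPM of Mt1 (horizontal axis, log scale) against CPM of Mt2A (vertical axis, log scale) in all 24 libraries, circles for the baseline and triangles for the induction experiment. The 3 fresh libraries stand at the top right, and the 48 h libraries lie above the others of the induction experiment on the Mt1 axis.

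Reads of Mt1 outnumbered those of Mt2A in every library. The mean ratio of Mt1 to Mt2A reads was 1.61 in the fresh isolate (1.58 to 1.66), 2.18 at day 3, 2.36 at day 5 and 2.50 at day 7. In the induction experiment it was 3.18 at 0 h, 3.12 at 2 h, 3.38 at 12 h and 2.84 at 48 h. The fresh isolate therefore held the lowest ratio, with every cultured library above it.

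Fkbp5 did not pass at 48 h in the limma fit reported. It passed with the litter as a block, and without the block in edgeR, in DESeq2 and in limma with TMM scaling. It was 90.5, 106 and 97.0 CPM at 0 h in litters 1 to 3, 103, 110.4 and 89.2 CPM at 2 h, and 104, 126 and 118 CPM at 12 h. At 48 h it measured 144, 144 and 126 CPM, above 0 h in each litter and without overlap between the groups, as in 20.4% of all genes. The mean went from 97.7 ± 7.56 to 138 ± 10.7 CPM (SD, n = 3), with a log2 change of 0.49 ± 0.10 (limma adjusted p = 0.07, and 0.00798 with the litter as a block; edgeR 0.0222; DESeq2 1.24e-06). With the block, the call of Fkbp5 was lost without litter 1 (adjusted p = 0.063) and without litter 2 (0.0799). Tsc22d3 was 76.3, 67.9 and 70.7 CPM at 0 h, 68.3, 64.9 and 62.6 CPM at 2 h, 81.4, 69.0 and 98.5 CPM at 12 h, and 93.7, 73.0 and 94.1 CPM at 48 h. All 3 litters were lower at 2 h and higher at 48 h than at 0 h, and the ranges of 0 h and 48 h overlapped. The log2 difference of Tsc22d3 at 48 h was 0.27 (95% interval -0.01 to 0.54; adjusted p = 0.399).

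The remaining 4 genes did not pass the test at 48 h, with or without the litter block. Klf9 was 4.74, 5.58 and 6.15 CPM at 0 h and 9.33, 7.43 and 6.92 CPM at 48 h, where every library lay above the 0 h libraries (0.45, 95% interval 0.13 to 0.77; adjusted p = 0.242). Zbtb16 was 3.59, 2.66 and 4.06 CPM at 0 h and 8.24, 5.35 and 5.09 CPM at 48 h, again without overlap (0.69, 0.15 to 1.23; adjusted p = 0.274). The summed germ cell markers were 140.3 to 179 CPM at 0 h and 103 to 158 CPM at 48 h, and none of the 16 tested passed without the block. With it 1 fell, Ret (adjusted p = 0.0403), named after its value was seen; the part of these markers was not tested. Errfi1 was 34.9, 47.5 and 48.1 CPM at 0 h and 75.6, 60.0 and 61.1 CPM at 48 h, and litter 1 had both the lowest and the highest of these values (0.59, 0.14 to 1.04; adjusted p = 0.263). Sgk1 was 28.7, 39.9 and 20.7 CPM at 0 h and 37.7, 39.3 and 26.7 CPM at 48 h, with overlapping groups (0.24, -0.42 to 0.90; adjusted p = 0.77). Within litters, 6 of the 7 genes were higher in all 3 litters at 48 h than at 0 h and none was lower in all 3. Of all genes, 17.7% were higher in all 3 litters and 28.9% lower. At 2 h, 3 of the 7 were higher and 1 lower in all litters, against 20% and 22% of all genes. At 12 h, 3 were higher and 0 lower, against 9.75% and 21.5%.

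The same 4 genes overlapped their 0 h range at 12 h, and at 2 h all but Klf9 did, whose groups lay apart there, as in 16% of all genes. Klf9 measured 6.25, 6.67 and 7.19 CPM at 2 h and 6.54, 4.69 and 5.91 CPM at 12 h. Errfi1 measured 29.8, 37.6 and 54.6 CPM at 2 h and 35.7, 49.3 and 46.6 CPM at 12 h. Zbtb16 measured 3.68, 2.92 and 4.90 CPM at 2 h and 2.62, 3.36 and 5.56 CPM at 12 h. Litter 3 had the highest Zbtb16 level at each of 0, 2 and 12 h, and litter 1 had it at 48 h. Sgk1 measured 23.9, 55.2 and 27.3 CPM at 2 h and 26.4, 36.8 and 36.2 CPM at 12 h, so litter 2 was highest at all 4 times. In the limma fit without the litter block, 0% of genes passed between 2 h and 12 h and between 12 h and 48 h. None of the 7 did. With the block, none of the 7 passed between 2 h and 12 h, and Mt1 passed between 12 h and 48 h. Between 2 h and 12 h, 6 of 17 immediate early genes fell with the block. The share of all genes with the block is not given for that step. At an unadjusted p under 0.05 there were 1654 and 846 genes; edgeR called 11 and 0 and DESeq2 called 387 and 85.

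Other known targets that passed at 48 h were Glul, Crispld2 and Klf15, 3 of 27 tested, and none fell. With the litter as a block 8 rose and 1 fell. Glul encodes glutamine synthetase and went from 105 ± 21.97 to 319 ± 82.7 CPM (1.58 ± 0.20, adjusted p = 0.00832). Crispld2 encodes a secreted protein and went from 48.0 ± 13.0 to 143 ± 33.8 CPM (1.57 ± 0.25, adjusted p = 0.0259). Klf15 went from 10.0 ± 1.19 to 20.8 ± 2.15 CPM (0.99 ± 0.16, adjusted p = 0.0259). Nr3c1 was 131, 128 and 128 CPM at 0 h and 121.7, 117 and 126 CPM at 48 h (-0.09 ± 0.08, adjusted p = 0.653), and Per1 was 37.1 CPM at 0 h and 39.5 CPM at 48 h (adjusted p = 0.796). The median of the 27 targets at 48 h was 0.10, and that of all genes was -0.03. Summed macrophage markers were 69.9, 22.9 and 28.8 CPM at 0 h and 138, 23.9 and 173 CPM at 48 h by litter. Of 8 macrophage markers tested, 0 passed without the block and 1 rose with it. Their median log2 change was 1.07, and their part in these results was not tested. The summed Leydig cell markers were 271 to 332 CPM at 0 h and 316 to 488 CPM at 48 h. Of the mean sum of 309 CPM at 0 h, Nr5a1, named after its values were seen, held 184 CPM. It was 186 CPM at 48 h, and 1 of the 8 markers had no reads at either time. None of 7 Leydig markers passed without the block. With the litter as a block 3 rose and 0 fell, and these 3 were also named after their values were seen. They were Cyp17a1 (mean 0.898 to 25.4 CPM, limma adjusted p = 0.0021 with the block), Cyp11a1 (7.23 to 23.7 CPM, 0.0302) and Scarb1 (46.2 to 77.4 CPM, 0.0487). The median log2 change of the 7 markers was 0.66, and their part in these results was not tested.

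The genes whose levels followed each member most closely were found by Pearson's correlation of log2(CPM + 1) over the 12 libraries of an experiment, which share their groups, litters and depths. In the baseline experiment Mt1 was matched most closely by Fbxo44 (r = 0.995), Dnajb1 and Mt2A (both 0.993), and 1521 genes had r over 0.9 with it. Tsc22d3, the member that did not fall, had 2 such genes, and its closest were Slc8a2 (0.922), Dlg4 (0.902) and Sra1 (0.898). In the induction experiment the closest to Mt1 were Adamts15 (0.94), Atp6ap2 (0.912) and Mt2A (0.911). There the closest to Fkbp5 was Ppp1r1b (0.95), to Errfi1 Robo1 (0.947), to Tsc22d3 Gng11 (0.958), to Zbtb16 Ly6e (0.898), to Klf9 Vxn (0.859) and to Sgk1 LOC685203 (0.937).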

How the data were processed

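Poly(A) RNA of 24 libraries was sequenced without strand information on a NovaSeq instrument, per the labels' protocols, so reads of overlapping and antisense genes cannot be told apart. Reads were aligned with STAR to mRatBN7.2, per the submitters' processing notes; the version, the counting tool and the annotation are not given in the sources used here. The authors deposited 1 table of CPM, in which each library is brought to one total. By the deposited values, 100% of CPM are whole reads within 0.01 read once divided by the smallest step, so the depth of each library was recovered; 2.93 to 4.71% of the reads per library lie outside the listed genes. The deposited CPM were used for the main test, and the recovered reads for edgeR and DESeq2.

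Libraries were grouped by the labels. In each experiment genes with at least 1 CPM in at least 3 libraries were kept (13055 baseline, 12450 induction; all 7 genes passed both), and log2(CPM + 1) was fitted with limma 3.58.1 (R 4.3.3) with 4 groups and a trended prior. Fold changes on this scale understate changes of low genes. The Benjamini-Hochberg adjustment ran over all genes of a comparison, with a threshold of 0.05. Alternatives were pseudocounts of 0.25 and 5, no filter and a filter of 5 CPM, TMM scaling, the replicate number as a block, the 2 groups alone, edgeR 4.0.16 and DESeq2 1.42.0 on the reads, and leaving out each library; leaving out each litter with the block was chosen after seeing the data. In the induction experiment the replicate number is the litter, as the labels say; across 18 pairs of same-litter libraries the median correlation of deviations from the group means was 0.482 (-0.0119 to 0.747). The scripts were tested on simulated data.

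The 7 genes and the lists were chosen with earlier results of these data known. All 7 are named; of each other list, up to 3 genes that rose and 3 that fell per comparison, with the largest fold changes and no overlap between groups, could be named, besides Nr3c1, Nr3c2, Hsd11b1, Per1, Mt2A, Ddx4, Fos and the 3 genes most like each member. The Mt1-ps3 row was chosen after its values were seen. Promoters and gene classes come from RefSeq on GRCr8; 19696 of the 21425 gene names matched its table. Intervals of fold changes are limma's and rest on the spread between libraries, which is technical in the baseline experiment and between litters in the induction experiment.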

Additional observations from a re-analysis of the deposited data

How the results depend on the processing

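Of the 19 member values that passed the threshold, 402 alternatives were run; 394 kept the direction and the call and 8 lost the call, all 8 for Mt1 at 48 h against 0 h, and none changed direction. The 6 members that fell in culture were called at each day under all 21 alternatives per value. Tsc22d3 at day 7 against the fresh isolate was called as risen with TMM scaling, with the 2 groups alone, with edgeR and with DESeq2. It was not called under any other alternative. Tsc22d3 at day 5 against the fresh isolate, 0.02 in the fit reported, ranged from -0.102 to 0.104 when 1 library was left out, the lowest without day 5 replicate 2 and -0.03 without fresh replicate 2. Of the 44 member values that did not pass, 18 changed sign under at least 1 alternative.

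For day 7 against day 3 the count of members called, 0 as reported, was 1 with the replicate block and 1 with DESeq2, Sgk1 in each case, and 0 to 1 when 1 library was left out. The baseline numbers mark technical replicates and did not pair: the median correlation was -0.000715 (-0.349 to 0.344, with 5 of 18 over 0.1). For 48 h against 0 h, 1 as reported, it was 0 without the filter, 0 with only the 2 groups, 2 with TMM scaling, 2 with the replicate block, 2 with edgeR and 2 with DESeq2, and 0 to 2 when 1 library or 1 litter was left out. With the block, Mt1 had an adjusted p of 0.0508 without litter 1 and 0.0718 without litter 2, and Fkbp5 had 0.063 and 0.0799. For 48 h against 12 h, 0 as reported, it was 1 with the replicate block and 1 with DESeq2. The block changed no other member call. TMM scaling moved the median of all genes by at most 0.0616 (log2). Of 216 list counts, 23 moved by over 1.5 times; other known targets at 48 h went from 3 to 9 with the block. The cause was not tested. Zbtb16 had the fewest reads, 5 in its lowest library, where counting error alone is 44.7% of the value, and its spread between replicates reached 69.1%. DESeq2 gave no adjusted p for Zbtb16 at 2 h against 0 h and 12 h against 2 h or for Klf9 at 12 h against 2 h.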

Other observations

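The genes of the metal response list went both ways in culture. Of 7 tested, 3 rose and 2 fell at day 3. The list includes Mt2A, and not every gene in it handles zinc. Its relation to the fall of Mt1 was not tested. Mtf1, which encodes the zinc-sensing factor of the metallothionein promoters, rose from 0.503 to 2.12 CPM (1.05 ± 0.22, limma adjusted p = 0.00131). Its mean in the fresh isolate was thus under the 1 CPM used as a filter. In the induction experiment Mtf1 was 19.4 CPM at 0 h and 20.6 CPM at 48 h (limma adjusted p = 0.742). These levels were not compared with those of the baseline experiment. The zinc importer genes Slc39a14 and Slc39a10 rose from 35.8 to 51.2 CPM (0.50 ± 0.11, adjusted p = 0.00209) and from 113 to 156 CPM (0.45 ± 0.14, 0.0124). Mt3, which encodes a metallothionein best known in the brain, fell from 80.2 to 9.12 CPM (-3.02 ± 0.25, adjusted p = 4.09e-07).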
